A study of Mus musculus with 2 samples.

Results

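Cluster 11 was the smallest of the 12 clusters in the deposited tables of all cells. Its members were taken by their cluster number: the column of cluster 11 with both libraries together, and its mock and ligated columns. It held 81 of 15605 cells, 22 of the 4199 cells of the mock library and 59 of the 11406 cells of the ligated library. Its working label joins genes of dividing cells with the neutrophil genes S100a8 and S100a9. The genes of dividing cells were high in both libraries. S100a8 and S100a9 were at 0 in all 59 ligated cells, and every one of their UMIs in the cluster (unique molecular identifiers, each standing for 1 captured RNA molecule) came from 1 of the 22 mock cells. The data therefore go against the neutrophil part of the label, and the cells are called the dividing-cell cluster here.

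The study compared stroma of the mouse salivary gland after the ducts were blocked and after a mock operation. Both libraries came from female C57BL6/J mice aged 14 weeks. In the ligated group a metal clip closed the ducts that drain the submandibular and sublingual glands for 14 days, and in the mock group the ducts were found but not clipped, with the same 14 days before harvest. Each group was 1 droplet library made from 2 glands. In both groups, cells bearing EpCAM (epithelial cells) or Ter119 (the red cell lineage) and then dead cells had been depleted, and every share of cells below is a share of the cells that remained. The tables hold, for each gene, the mean over a cluster's cells of the gene's UMIs per 10000 UMIs of the cell, called the level below. With 1 library per group, no difference between the groups could be tested, and all values describe these cells alone.

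A dividing cell first copies its DNA and its histones and then separates the copies on a spindle, and each stage has its own set of transcripts that rest at low levels in non-dividing cells. Ki-67, encoded by Mki67, coats mitotic chromosomes, and topoisomerase II alpha, encoded by Top2a, untangles the copied DNA. S100a8 and S100a9 encode the 2 chains of calprotectin, a protein that fills the cytoplasm of neutrophils, and mature neutrophils have left the cell cycle.

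The dividing-cell cluster made up 0.524% of the mock cells (0.329 to 0.792%, the 95% interval by the exact Clopper-Pearson method) and 0.517% of the ligated cells (0.394 to 0.667%). The intervals cover counting error only. The similar shares rested on the denominator. Without the endothelial-like cluster 0, which held 56.3% of the mock and 25.9% of the ligated cells, the shares were 1.20% of mock and 0.698% of ligated cells. Among clusters 1, 2, 5 and 11, which carry immune genes, they were 2.36% and 1.08%. The UMI totals of 80 cells were recovered from genes held by a single cell. That of the last mock cell, 767, has no such gene and came from what remained in 17 genes after the UMIs of known cells were taken out. The mock cells had between 767 and 30880 UMIs with a median of 13345, and the ligated cells had between 559 and 33322 with a median of 11241. Totals under 2500 UMIs occurred in 5 mock and 3 ligated cells. Cells are numbered below within each library from the highest total down.

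Mki67 stood at 8.75 in the mock and 6.88 in the ligated cells of the dividing-cell cluster. Among the other 11 clusters its highest levels were 0.473 in mock and 0.549 in ligated cells, both in cluster 5, which carries macrophage genes. Top2a stood at 11.4 in mock and 10.7 in ligated cells, against at most 0.773 and 0.742 elsewhere. Both proliferation genes were thus high in the 2 libraries alike. The neutrophil pair did not share this: S100a8 was at 16.2 in mock and 0 in ligated cells, and S100a9 at 20.0 in mock and 0 in ligated cells. Outside the cluster, S100a8 reached 0.480 in mock and 0.125 in ligated cells, again in cluster 5. In the bar plots of the 4 genes by cluster, the proliferation genes have a bar in each library and the neutrophil genes have a mock bar only.

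**Figure D1:**
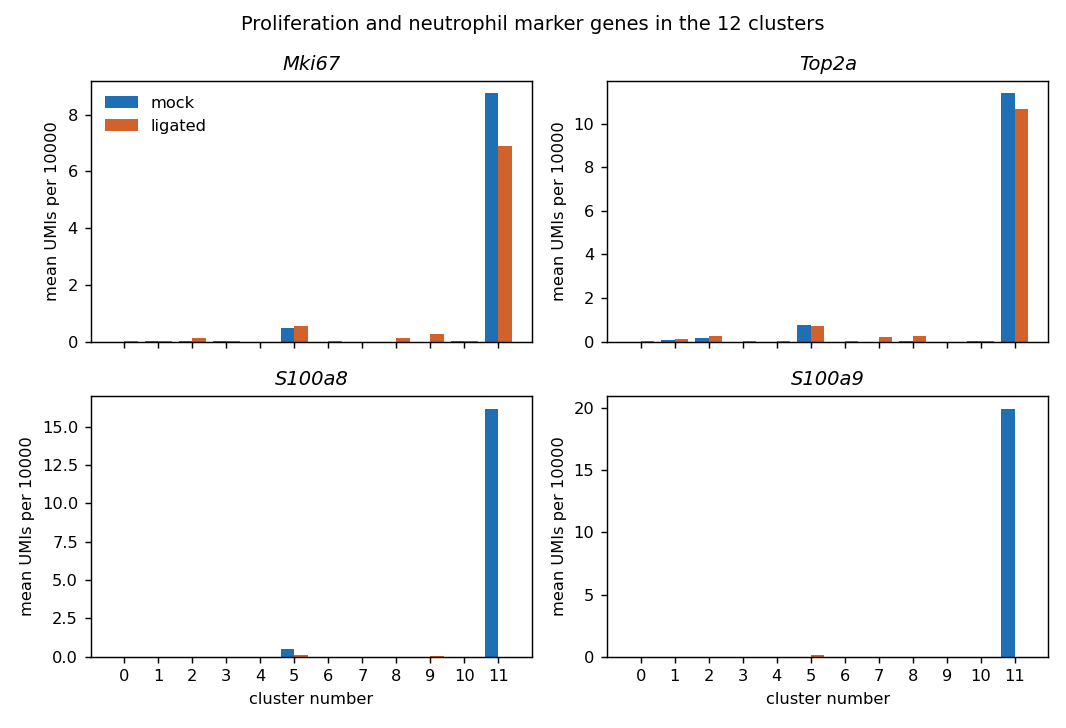
Level of Mki67, Top2a, S100a8 and S100a9 (vertical axes, mean UMIs per 10000) in the 12 clusters (horizontal axis) of the mock and ligated libraries, 1 bar per cluster mean and no error bars because each group has 1 library. Mki67 and Top2a are high in cluster 11 of both libraries, whereas S100a8 and S100a9 are high in its mock cells and at 0 in its ligated cells.

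Of 13774 genes above 0 in the cluster, 201 (1.46%) were led by it, meaning a level of at least 0.5 and at least 2 times the highest other cluster with 0.1 added to both values. Since the cells were clustered on such genes, this describes the cluster and is no test. Of the 201 led genes, 109 (54.2%) belonged to 4 lists of dividing-cell genes: DNA replication and G1/S, mitosis and G2/M, chromatin and tubulin, and histones. Among the 25 genes with the largest ratios 21 (84%) did. S100a9 had a ratio of 27.7 and S100a8 of 17.2. Next came Nusap1, a spindle microtubule protein, with a ratio of 16.8 and levels of 5.90 in mock and 4.77 in ligated cells. Ube2c, which hands ubiquitin to the anaphase-promoting complex, had a ratio of 14.4 and levels of 7.84 and 6.53. Further down were Hmmr, a spindle assembly factor (13.2), Cenpf, a kinetochore protein (12.4), Pclaf, a partner of the replication clamp (11.99), and Cdk1, the mitotic kinase (10.6). The other genes of the 25 in none of the 4 lists were Mxd3, a partner of Max, with a ratio of 9.87, and Pimreg, with 8.63.

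The replication genes were high across their list. Of 40 genes of DNA replication and G1/S, 38 had their highest level of the 12 clusters here and 28 were led, against 12.5% and 1.46% of all genes above 0. Rrm2, a subunit of the enzyme that makes deoxynucleotides, had 1.74 in mock and 2.08 in ligated cells. Mcm5 and Mcm7, subunits of the replicative helicase, had 0.771 and 1.91 in mock and 1.24 and 2.68 in ligated cells. Tk1, thymidine kinase, had 1.93 and 2.39. Dut, which keeps uracil out of DNA, had 3.25 and 3.77. These 5 genes were higher in the ligated cells by less than 1 on the log2 scale. Over the list 28 genes were higher by any amount and 12 lower, Rrm1, Clspn, Dnmt1 and Uhrf1 among them. The exceptions to the list's pattern were Ung, a uracil glycosylase (0.173 with both libraries together against 0.247 in cluster 7) and Gins1 (0.0559 against 0.0609 in cluster 5).

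The mitosis genes stood further above the other clusters. Of 60 genes, 59 had their highest level here and 54 were led, with a median ratio of 6.34 against 3.02 for the replication list. Ccnb2 and Ccna2, cyclins of mitosis and of late S phase, had 3.13 and 2.84 in mock and 2.51 and 1.53 in ligated cells. Birc5, or survivin, of the chromosomal passenger complex, had 5.12 in mock and 4.53 in ligated cells. Prc1, which bundles the central spindle, had 5.87 and 4.32. The one gene of the list with a higher level elsewhere was Pttg1, securin, at 0.546 against 1.78 in cluster 7.

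Chromatin genes and histones completed the picture. All 18 chromatin and tubulin genes and all 12 histone genes of the lists that have a row were highest in this cluster, and 16 and 11 of them were led. Hmgb2, a chromatin protein abundant in dividing cells, had 36.9 in mock and 34.4 in ligated cells against 4.35 in the next cluster with both libraries together. Stmn1, which destabilises microtubules, had 20.5 and 22.5. Hist1h1b, a linker histone made in S phase, had 16.3 and 14.2. Histone genes are near copies of each other, so the split of reads among them is uncertain.

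Genes that hold the cycle back were near the values over all genes. Of 16 inhibitor and quiescence genes, 2 were highest here, beside 12.5% of all genes above 0, and the median ratio was 0.578, beside 0.589 over 9606 genes. Those 2 were Cdkn2c (ratio 1.62) and Cdkn2d (2.55), inhibitors of the kinases that start the cycle. Btg1, an antiproliferative gene, had 8.27 in the cluster with both libraries together against 26.4 in cluster 1. Of 15 G1 cyclin and growth genes, 9 were highest here, a larger share than over all genes, and 1 was led. That 1 was Foxm1, a transcription factor of mitotic genes, with a level of 0.518 and a ratio of 4.27.

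Members of the mitosis and replication lists move together through the cycle, so their promoters are shown beside the values. The sequences are from RefSeq windows of 250 bases before to 50 bases after each start on build GRCm38.p6. Windows were found for 50 of 60 mitosis and 34 of 40 replication genes, and a motif was searched on both strands of them. The cell cycle homology region (CHR, searched as TTTGAA or TTCGAA) was in 39 of the 50 mitosis genes (78%), 7 of the 34 replication genes (20.6%) and 21.7% of 27025 genes with a window. The CCAAT letters were in 36 mitosis genes (72%), 21 replication genes (61.8%) and 41.1% of all genes. The E2F letters (TTTGGCGC or TTTCGCGC, whose 2 forms can overlap on opposite strands) were in 3 mitosis genes (6%), 11 replication genes (32.4%) and 0.929% of all genes. CHR letters were thus more common in mitosis genes than over all genes and near the all-gene share in replication genes. The E2F letters were above the all-gene share in both lists, and further above it in replication genes. A match describes the letters and is no evidence of binding.

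The 3 mitosis genes with the largest ratios that hold both CHR and CCAAT letters in the 150 bases before the gene's outermost start are printed 5′ to 3′ on the gene's strand, with those letters, or their reverse complement, in capitals. Ube2c lies on the plus strand at chr2:164769779-164769928, Top2a on the minus strand at chr11:99024200-99024349 and Mki67 on the minus strand at chr7:135716451-135716600.
Ube2c: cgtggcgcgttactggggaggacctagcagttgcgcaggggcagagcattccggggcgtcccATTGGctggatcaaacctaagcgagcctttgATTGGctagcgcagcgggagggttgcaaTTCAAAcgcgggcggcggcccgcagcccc
Top2a: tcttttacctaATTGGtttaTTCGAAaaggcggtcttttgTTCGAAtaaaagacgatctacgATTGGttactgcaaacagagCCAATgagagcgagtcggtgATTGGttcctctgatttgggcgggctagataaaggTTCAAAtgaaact
Mki67: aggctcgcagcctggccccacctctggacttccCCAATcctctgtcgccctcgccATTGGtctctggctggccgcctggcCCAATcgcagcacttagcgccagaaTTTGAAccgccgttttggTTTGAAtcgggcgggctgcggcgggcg

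The 2 replication genes with the largest ratios that hold the E2F letters in the same stretch were Mcm5, on the plus strand at chr8:75109318-75109467, and Mcm6, on the minus strand at chr1:128359706-128359855. Here the capitals mark the E2F letters and their reverse complement, and the forms overlap on opposite strands in both genes. Mcm6 had levels of 1.08 in mock and 1.48 in ligated cells.
Mcm5: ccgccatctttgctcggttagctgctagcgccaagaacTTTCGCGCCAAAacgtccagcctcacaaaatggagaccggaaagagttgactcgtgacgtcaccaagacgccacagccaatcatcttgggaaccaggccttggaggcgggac
Mcm6: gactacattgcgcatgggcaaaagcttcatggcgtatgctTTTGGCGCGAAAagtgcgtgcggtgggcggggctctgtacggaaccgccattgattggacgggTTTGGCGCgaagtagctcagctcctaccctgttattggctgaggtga

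Between the libraries few dividing-cell genes were past a size rule, though most mitosis genes were lower in ligated cells. A difference is given as log2 of ligated plus 0.1 over mock plus 0.1, and a gene was past the size rule where this was at least 1 in size and the higher level at least 0.5. Over all 4027 genes with such a level in the cluster, 483 (12%) were higher and 903 (22.4%) lower in ligated cells by this rule. Of the replication list 33 genes were that high, with 1 higher (Mcm2) and 3 lower (Cdc45, E2f1 and Ccne2). Of the mitosis list 57 were that high, with 0 higher and 9 lower, a smaller share than over all genes. The 9 were Aurkb, Kif22, Kif23, Ncapg, Pbk, Sgo1, Ckap2, Ckap2l and Ect2. By any amount, 52 genes of the mitosis list were lower in ligated cells and 8 higher. No chromatin or histone gene was past the rule.

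The median difference was 0.29 for the replication list and -0.45 for the mitosis list. It was -0.14 for chromatin and tubulin and -0.05 for histones, beside -0.05 over 9606 genes. Over the 4027 genes with a higher level of at least 0.5 the median was -0.17. Summed levels of the mitosis list were 159 in mock and 115 in ligated cells, and those of the replication list 44.8 and 49.4. The widest gap was that of Ccne2, a cyclin of S phase entry, at 2.28 in mock and 0.383 in ligated cells, a difference of -2.30. Sgo1, which guards sister chromatid cohesion, had 2.75 and 0.644, and Ect2, needed for cytokinesis, 1.03 and 0.175. The levels of lineage markers also differed between the libraries (next paragraphs), and their part in these differences was not tested.

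Lineage markers differed far more between the libraries than cycle genes. All 11 endothelial markers were above 0 in both, and 10 of 11 were lower in ligated cells past the size rule, beside 22.4% of all genes. Flt1, a VEGF receptor, had 10.97 in mock and 1.18 in ligated cells. Egfl7, secreted by endothelium, had 17.8 and 1.68, and Cdh5, the endothelial cadherin, 4.10 and 0.537. The exception was Cldn5, a tight junction protein highest in cluster 4, with 0.177 in mock and 0.555 in ligated cells. The median difference of the list was -2.83.

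T cell genes lay the other way. All 10 T cell markers with a level of at least 0.5 were higher in ligated cells past the rule, beside 12% of all genes, with a median difference of 2.09 over the 12 markers. Cd3g, a chain of the T cell receptor complex, had 0.517 in mock and 6.74 in ligated cells. Trac, the receptor's alpha constant segment, had 0.279 and 4.24. Of 11 natural killer markers that high, 6 were higher past the rule and 0 lower, with a median difference of 1.13 over 12. Nkg7, a cytotoxic granule protein, had 1.54 and 12.5. Ncr1, the natural killer receptor NKp46, had 0.369 and 0.749, a difference under 1. All 9 lymphocyte effector genes with a level of at least 0.5, a list that shares Gzma, Gzmb, Prf1 and Xcl1 with the natural killer markers, were higher in ligated cells, among them Ccl5 (3.84 and 26.8) and Gzma (0.0219 and 3.21).

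In the plot of ligated against mock levels, the dividing-cell genes lie near the diagonal, with most mitosis genes somewhat below it. The endothelial markers other than Cldn5 lie below the diagonal and the T cell markers above it.

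**Figure D2:**
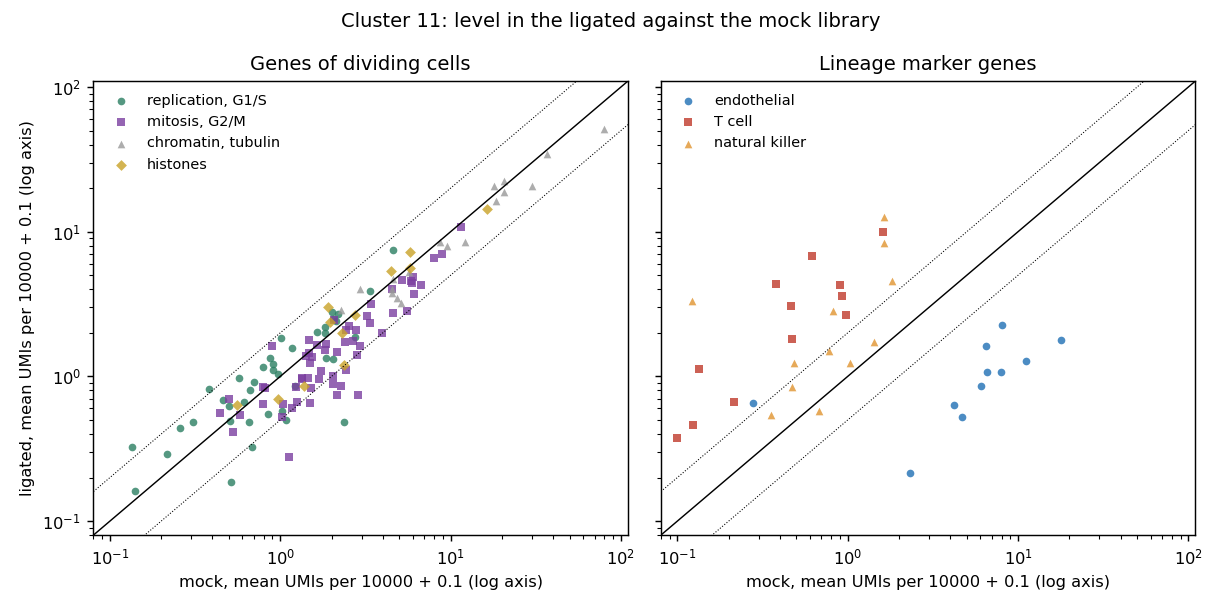
Level in ligated (vertical) against mock cells (horizontal) of cluster 11, mean UMIs per 10000 plus 0.1 on log axes, 1 point per gene, for dividing-cell lists (left) and lineage markers (right); the solid line is equality and the dotted lines a 2-fold difference. Most dividing-cell genes lie within the dotted lines, 10 of 11 endothelial markers lie below them and the T cell markers lie above them.

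These levels can be set against the clusters that carry each lineage in the same library. The 11 endothelial markers summed to 74.5 in mock and 10.9 in ligated cells, which is 35.0% and 6.31% of the sum in the endothelial-like cluster 0. In cluster 2, which carries T cell genes, the same markers summed to 8.90 in mock and 6.61 in ligated cells. The ligated sum was thus close to that of a cluster of another lineage, and the mock sum was far above it. T cell markers summed to 5.74 in mock and 37.9 in ligated cells, or 11.8% and 55.5% of cluster 2. Natural killer markers summed to 10.1 and 38.1, or 10.2% and 37.8% of cluster 1. In cluster 0 the T cell markers summed to 0.145 in mock and 0.594 in ligated cells, so both columns of the dividing-cell cluster stood above that background.

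Lymphatic endothelial markers summed to 3.56% and 20.7% of cluster 4, with 1 of 7 markers above 0 in mock and 7 of 7 in ligated cells. The sums were small, at 2.23 in ligated cells of the dividing-cell cluster and 10.8 in those of cluster 4. Of the 2.23, Ccl21a alone had 1.67. Other lineages had low sums beside the clusters that carry them. Macrophage, fibroblast, mural, Schwann, ductal and erythroid markers came to at most 1.93% of the cluster that carries them, in either library, as the bar plot of lineage sums shows. The ductal sum itself was not low in ligated cells, at 18.5, of which Klk1 had 17.5. It was 1.21 in mock cells. In cluster 0 the ductal markers summed to 0.340 in mock and 2.25 in ligated cells, and in cluster 7 to 374 and 958. The B cell list had 1 of 7 markers above 0, and the eosinophil list had 0 of 4 with a row. A mean cannot tell fewer cells of a type from less RNA of it per cell.

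**Figure D3:**
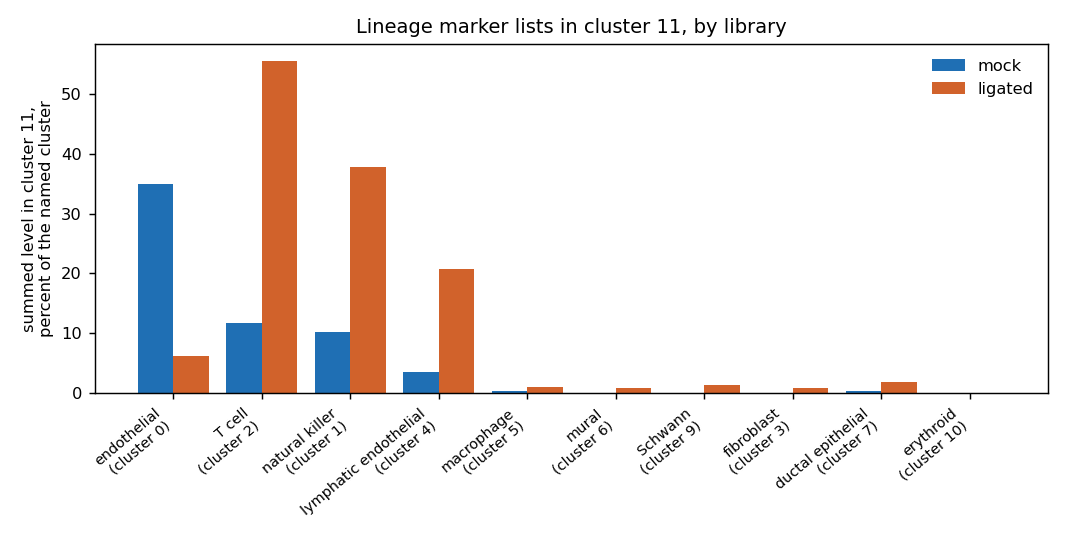
Summed level of each lineage marker list in cluster 11 as a percent of the sum in the cluster that carries the lineage (named under each bar) in the same library, mock and ligated; each bar is 1 ratio of means with no error bar, because each group has 1 library. Endothelial markers reach 35.0% in mock and 6.31% in ligated cells, and T cell markers 11.8% and 55.5%.

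The deposited values have 15 digits with both libraries together and 9 decimals in each library. With these, the UMIs of 5024 genes, 36.5% of those above 0, could be placed in single cells. Each placement was the only set of whole numbers giving both library means among the sets of few UMIs or few cells that were searched. The placed genes are mostly genes held by few cells and make up a median of 1.5% of a cell's UMIs. S100a8 (chr3:90669071-90670034, GRCm38.p6) and S100a9 (chr3:90692630-90695721), close together on the chromosome, were both held by mock cell 1 alone. That cell had 1099 UMIs of S100a8 and 1357 of S100a9, together 7.95% of its 30880 UMIs. It was 1 of 22 mock cells, or 4.55% (exact 95% interval 0.115 to 22.8%). With 0 of 59 ligated cells, 3 counts of the total allow a share of cells with a UMI of up to 5.08%, for counting error only. Without that cell both genes are at 0 in the mock column and are no longer led. The cell could be taken out only of genes placed in single cells, so the led count of most other genes was not recomputed.

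The same cell held a set of neutrophil genes. Of the genes placed in it and no other cell there were 91, and 37 of them had 2 or more UMIs. Wfdc21, of the whey acidic protein family, had 37 UMIs, Mmp8, neutrophil collagenase, 28, and Mmp9, gelatinase B, 10. Il1b had 25, Slpi, a protease inhibitor, 15, and Hp, haptoglobin, 10. Cd177, a neutrophil surface protein, had 3, and Padi4, which citrullinates histones, and Fpr1, a formyl peptide receptor, 2 each. Several more were shared with 1 other cell: Lcn2, lipocalin of neutrophil granules, had 66 UMIs here and 4 in ligated cell 18, and Cxcr2, the chemokine receptor of neutrophils, had 8 here and 1 in ligated cell 25. Over the 13 placed neutrophil markers other than S100a8 and S100a9, 176 of 183 UMIs were in mock cell 1.

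The neutrophil lists were not complete in it. Ltf and Chil3, genes of granules, and Mpo and Prtn3, genes of precursors, were at 0 in both libraries of the cluster, and Camp, Ngp, Ly6g and Elane have no row in the tables. Other list members were higher in ligated than in mock cells: Pglyrp1 (0.450 in mock and 1.29 in ligated cells), Mxd1 (0.129 and 0.408), Gfi1 (0.0331 and 0.230) and G0s2 (0.0147 and 0.0764). Each of these had its highest level in another cluster, 1 or 7. Genes of other lineages were in the same droplet at low counts: 12 UMIs of 11 Schwann-cluster genes, 11 of 9 mural-cluster, 10 of 7 epithelial-cluster, 9 of 4 fibroblast-cluster and 7 of 3 endothelial-cluster genes. Of macrophage-cluster genes mock cell 1 had 1456 UMIs of 18 genes, 1357 of them from S100a9. Lyz2, lysozyme of myeloid cells, neutrophils included, had 31 UMIs. Of 15 genes with a ratio of at least 2 and a level of at least 0.2 that could be placed in mock cells, mock cell 1 held 4 UMIs of 4 genes, 1 each of Ankle1, Cdc25c, Hist1h2bg and 1700097N02Rik. That is 1.30 per 10000, against 0 to 26.1 over the 22 mock cells, and the 15 genes were found in 19 of them. The 26.1 stands for 2 UMIs in the cell of 767. Only 2 of the 15, Cdc25c and Cdc6, are in the dividing-cell lists, and Mki67 and Top2a could not be placed. These counts are therefore no measure of division in mock cell 1. It was the mock cell with the most UMIs, and whether the droplet held more than 1 cell was not tested.

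In a few other cells the placed UMIs of 1 lineage's genes outnumbered those of each other lineage. For this, a gene was assigned to a lineage where its level in one group of other clusters was at least 0.05 and, with 0.01 added to each, at least 5 times that of the next group. The sets were unequal, with 141 Schwann-cluster, 64 mural-cluster and 53 ductal-cluster genes placed, but 7 T cell-cluster genes and 1 natural killer-cluster gene. A lead of lymphocyte genes could thus hardly be seen here. Of 531 placed UMIs of Schwann-cluster genes, ligated cells 14 and 9 held 251 and 165, together 78.3%, from 104 and 61 genes. The next cell had 10 and the median cell 1. Sox10, the transcription factor of the Schwann lineage, had 6 UMIs in ligated cell 14, 8 in ligated cell 9 and 0 in all other cells. Ligated cell 4 held 65 UMIs of 33 mural-cluster genes, and Pdgfrb, a receptor of mural cells, had 9 UMIs there and 1 in ligated cell 39. Of 126 placed UMIs of ductal-cluster genes, mock cell 21 held 15 of 6 genes and ligated cell 59 held 9 of 8 genes. Both were shallow cells, with 1621 and 559 UMIs in all, and mock cell 21 also had 5 UMIs of mural-cluster genes. The counts here are not scaled to a cell's total, so shallow cells stand out less.

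Ligated cell 18 held lymphatic genes. It had 13 UMIs of Prox1, the transcription factor of lymphatic endothelium, 11 of Mmrn1 and 7 of Lyve1, and none of the 3 was in any other cell. Over 5 placed lymphatic markers it held 34 of 38 UMIs, and it also had 10 UMIs of Schwann-cluster and 9 of mural-cluster genes. Among macrophage-cluster genes placed from both library means, mock cell 1 held the most UMIs, 1454, of which 1357 were of S100a9. Mock cell 5 came next with 116 UMIs of 18 such genes, with Plbd1 at 30, H2-DMb1 at 19 and Aif1 at 12. Over the genes placed in mock cells it also had 24 UMIs of 5 fibroblast-cluster and 16 of 11 epithelial-cluster genes. It was the one cell with UMIs of Clec9a and Flt3, genes of dendritic cells, at 1 each. The other dendritic marker placed, Xcr1, had its 1 UMI in ligated cell 1. Cd209a, Ccr7 and Siglech of the same list were at 0 in the cluster. The panels of placed UMIs by cell show the cells named for Schwann-cluster, mural-cluster, lymphatic and macrophage-cluster genes above the rest. Ductal-cluster genes have no panel.

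**Figure D4:**
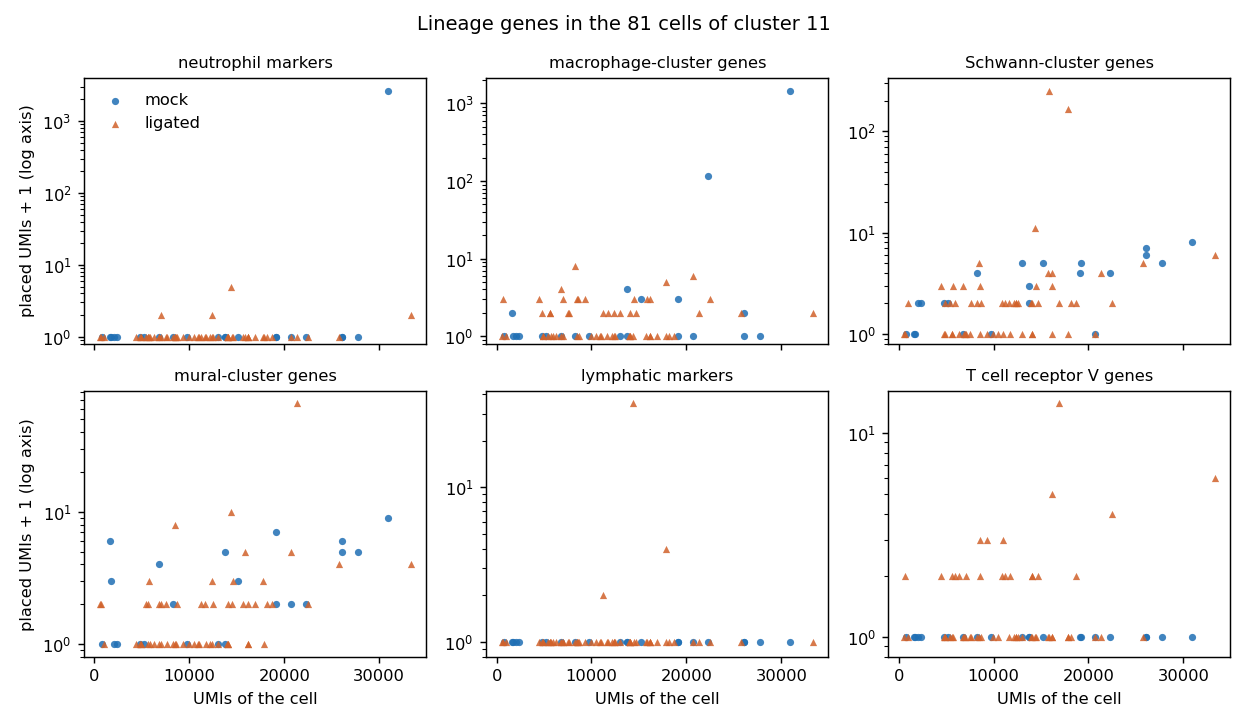
Placed UMIs plus 1 (vertical, log axis) of 6 lineage gene sets against the UMI total of the cell (horizontal) for the 22 mock cells (circles) and 59 ligated cells (triangles) of cluster 11; each point is 1 cell. Mock cell 1 stands out for neutrophil markers with 2632 UMIs, ligated cells 14 and 9 for Schwann-cluster genes, ligated cell 4 for mural-cluster genes and ligated cell 18 for lymphatic markers. For macrophage-cluster genes mock cell 1 is highest with 1454 UMIs, 1357 of them from S100a9, and mock cell 5 next with 116.

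T cell receptor variable segments, each used by few T cells, could be placed in full. Of 49 Trav and Trbv genes with a row, 18 were above 0 in the ligated cells of the cluster and all 18 were solved. Their 45 UMIs were in 21 of the 59 ligated cells and in 0 of the 22 mock cells. Ligated cell 10 held 12 UMIs of Trav13-4-dv7, and ligated cell 1 held 3 of Trbv3 and 2 of Trav3-3. In the mock library 8 of the 49 genes were above 0 in any cluster, so the 0 of the mock cells is no measure of T cells there. Foxp3, the transcription factor of regulatory T cells, was in 1 cell, ligated cell 30, with 2 UMIs.

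Genes with few UMIs in the mock library could be placed within it alone, which gave 5344 genes in all. Of these, 40 belonged to the lymphocyte clusters 1 and 2, and 6 mock cells held 5 or more of them. Mock cell 11 had 30 UMIs of 13 such genes, among them Cd247, the zeta chain of the T cell receptor complex, with 4, and Cd5 with 1. Mock cell 13 had 23 UMIs of 13 genes, with Trac at 6 and Cd28, a T cell costimulator, at 2. Mock cells 6 and 8 had 13 and 19 UMIs. Mock cell 6 also had 14 UMIs of 8 epithelial-cluster genes, and mock cell 8 had 9 of 7 Schwann-cluster genes.

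Of 19 placed endothelial-cluster genes, 3 mock cells held 5 or more, led by mock cell 7 with 13 UMIs of 8 genes, among them Sox17, a transcription factor of arterial endothelium, with 2. Mock cells 2 and 3 held 5 or more genes of both groups: mock cell 3 had 11 UMIs of endothelial-cluster and 15 of lymphocyte-cluster genes among its 26078 UMIs. Counts for other lineages were similar: 9 mock cells held 5 or more Schwann-cluster genes, 6 held 5 or more epithelial-cluster, 4 held 5 or more mural-cluster and 3 held 5 or more fibroblast-cluster genes. Mock cell 7 also had 10 UMIs of 9 Schwann-cluster and 8 of 6 mural-cluster genes, and mock cell 3 had 15 of 10 epithelial-cluster, 8 of 6 fibroblast-cluster and 6 of 6 Schwann-cluster genes. Mock cell 2 had 6 or more genes of the epithelial, mural and Schwann clusters. In mock cells 11 and 13 the lymphocyte genes were the largest set, with at most 8 UMIs of any other. Whether a droplet held more than 1 cell was not tested.

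Single differences were ranked without the genes above 0 in 1 library alone, which left 442 higher and 873 lower past the size rule. The 10 largest lower levels in ligated cells were, after S100a9 and S100a8, those of Fabp4, Rbp7, Rflnb, Tinagl1, Anxa3, Fabp5, Ift122 and Nostrin. Fabp4, a fatty acid carrier of capillary endothelium, had 75.0 in mock and 2.58 in ligated cells, a difference of -4.81, and reached 144 in another mock cluster. Rbp7, a retinol-binding protein, had 6.50 and 0.224. Ccnd1, the cyclin that starts the cycle, had 6.13 and 0.393, and Cdkn1a, an inhibitor of cycle kinases, 4.00 and 0.380. Both of these are most abundant outside the cluster in cluster 0.

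Ranked likewise, the 10 largest higher levels in ligated cells were those of Klk1, Ifi27l2a, Nme2, Ly6c2, Gzma, Rnasek, Mgp, Ccl21a, Atp6v0c and Tomm6. Ly6c2, a surface protein of memory T cells and monocytes, had 0.0238 in mock and 4.44 in ligated cells. Ifi27l2a, an interferon-induced gene, had 0.180 and 15.2, but over the interferon list 1 of 9 genes was higher and 3 lower, beside 12% and 22.4% of all genes. Klk1, a kallikrein of the ducts, had 0.0873 and 17.5, and stood at 898 in another ligated cluster. Nme2, Rnasek, Atp6v0c and Tomm6 were at most 0.719 in every mock cluster and reached between 3.52 and 17.7 in ligated clusters, so their difference was not particular to these cells and is uncertain. Over all clusters, 3150 genes were above 0 in the ligated library alone and 684 in the mock library alone.

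Among other S100 genes, S100a4 and S100a6 were higher in ligated cells (5.04 and 15.7; 5.67 and 18.3) and S100a16 lower (2.16 and 0.671). S100a10 was at 11.1 and 11.5. These genes could not be placed in single cells. Of 13 antimicrobial and myeloid effector genes with enough level, 8 were higher in ligated cells and 2 lower, beside 12% and 22.4% of all genes. The higher ones included Fcer1g (3.01 and 10.1) and Tyrobp (2.20 and 7.66), adaptor proteins that natural killer cells share with myeloid cells. Immediate early genes, which respond to dissociation, had 3 higher and 3 lower of 14, and mitochondrially encoded genes had 0 higher and 1 lower of 12, beside the same shares over all genes.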

How the data were processed

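The authors deposited tables of cluster means with no unit in the headers. By the values, each is the linear mean over a cluster's cells of a gene's UMIs per 10000 (columns sum to 10000), so the deposited values are other than counts and no count model was fitted. Cell Ranger 6.0.1, Seurat and mm10 are named per the submitters' processing notes; filters and clustering are not given in the sources used here. Dates had replaced 21 gene symbols in the split table, restored from the gene order, and 0 value columns lacked a sample.

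Cell numbers and UMI totals were recovered from genes held by 1 cell (1 total from remainders). A gene's UMIs were placed in cells where 1 set of few whole numbers gave both library means (up to 7 mock and 5 ligated UMIs, or up to 3 cells with more). On simulated cells 1350 of 1350 accepted solutions were right. Placing UMIs within the mock or the ligated library alone gave the same solution in 2759 of 2759 and 3696 of 3699 shared genes. Doublets were neither called nor removed here.

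The members, lists and rules were chosen with earlier results of these data known. The text names genes of the lists and marker lists, the 25 genes with the largest ratios, and the 10 largest differences past the size rule in each direction. Those differences were ranked among genes above 0 in both libraries. Genes named as placed in single cells, and the rule that assigns genes to a lineage, were chosen after their values were seen. With 1 library per group no p-value is given. Python 3.11.15 with numpy 2.4.6, pandas 2.3.3 and scipy 1.17.1 was used. The alternatives varied the pseudocount, minimum level, size, denominator and a subtraction of the library's mean profile.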

Additional observations from a re-analysis of the deposited data

How the results depend on the processing

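No paired analysis was possible because each group has 1 library. Counts of genes past the size rule moved with its thresholds: 105 higher and 205 lower in ligated cells with a pseudocount of 1, 1143 and 1575 with no minimum level, 112 and 208 with a higher level of at least 2, and 139 and 316 with a size of at least 2. More genes were lower than higher under every one of the 7 alternatives. Led genes numbered 80 with a pseudocount of 1, 66 with a level of at least 2, 112 with a ratio of at least 4 and 302 in the mock columns. Shares of cells were 1.20% (mock) and 0.698% (ligated) without cluster 0, and 2.36% and 1.08% among clusters 1, 2, 5 and 11. At 0.05 or more, 5 of 10 mature neutrophil markers and 4 of 8 granule markers were detected. With a pseudocount of 1 the median difference was 0.14 for the replication list and -0.30 for the mitosis list. Without mock cell 1, an alternative chosen after seeing the data, S100a8 and S100a9 were at 0. Of 41 alternatives 19 stayed near the main value and 22 moved it. A reversed direction was looked for only in the median differences of the dividing-cell lists, where 0 reversed. The subtraction took 4.66% of the mean profile from the ligated column and 0% from the mock column. Precision is limited by the 22 mock cells, since 1 deep cell can set a mean, and by the small part of the UMIs that could be placed in cells.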
